A study of Mus musculus with 14 samples.

Results

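The genes described here encode the receptors, ligands and motor with which the retinal pigment epithelium (RPE) takes up shed photoreceptor outer segments. They were chosen by name for that role, with earlier results of these data known. They are 9 of the 42687 genes in the deposited count table: Mertk, Itgav, Itgb5, Tyro3, Axl, Mfge8, Gas6, Pros1 and Myo7a. All 9 had enough reads to be tested in each comparison.

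RNAseq was performed on RPE cells of 14 male C57BL/6J mice aged 3 months, with 1 library of poly(A) RNA per mouse and the cells of both eyes pooled. The mice were taken as 3 sets that share no library. Which set each KO library belongs to was read from the style in which its title and those of the controls are written, since no label states it outright, and each KO vs. control value rests on this. In the WT set, 3 KO mice (Best1-Cre+/-; Clic4f/f) were compared with 3 wild type mice (WT). In the Ctrl set, 2 KO mice were compared with 2 mice with floxed Clic4 and no Cre (Clic4f/f, named Ctrl). In the CreCtrl set, 2 KO mice were compared with 2 mice with Cre and no floxed allele (Best1-Cre+/-, named CreCtrl). Cre is driven by the promoter of Best1, a chloride channel gene of RPE. The cells were shaken off the choroid and sclera after trypsin treatment, so they were purified by detachment and not by sorting. Control genotype and set go together and cannot be told apart.

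Each RPE cell faces the tips of many photoreceptors and engulfs the outer segment fragments that they shed each day. The fragments expose phosphatidylserine, which is bridged to the RPE surface by soluble ligands. Mfge8 links it to the integrin alphavbeta5 (Itgav with Itgb5), which binds the fragments. Gas6 links it to each receptor tyrosine kinase of the TAM family (Tyro3, Axl and Mertk), and Pros1 links it to Tyro3 and Mertk. Of these receptors, Mertk drives engulfment in RPE. Loss of Mertk causes retinal degeneration in the RCS rat and in patients. Myo7a is an unconventional myosin that moves phagosomes and melanosomes in the apical RPE, and its loss causes Usher syndrome type 1B.

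The sequences just before the transcription starts of Mertk and Itgav, the members called higher in KO than in WT libraries, and of Axl and Pros1, the members with the largest decreases, are shown because these genes carry the main differences. Each line gives the 250 bases before the start annotated by RefSeq on GRCm38.p6, 5′ to 3′ on the strand of the gene. They lie at chr2:128698665-128698914 (Mertk, plus strand), chr2:83724147-83724396 (Itgav, plus strand), chr7:25788734-25788983 (Axl, minus strand) and chr16:62854057-62854306 (Pros1, plus strand). Capitals mark GGGCGG, the GC box, on either strand, where CCGCCC is its reverse complement.
Mertk: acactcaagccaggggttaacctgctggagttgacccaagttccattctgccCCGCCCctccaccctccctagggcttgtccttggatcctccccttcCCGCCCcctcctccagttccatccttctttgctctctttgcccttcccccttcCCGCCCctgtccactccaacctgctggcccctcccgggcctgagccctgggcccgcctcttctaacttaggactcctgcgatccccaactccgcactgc
Itgav: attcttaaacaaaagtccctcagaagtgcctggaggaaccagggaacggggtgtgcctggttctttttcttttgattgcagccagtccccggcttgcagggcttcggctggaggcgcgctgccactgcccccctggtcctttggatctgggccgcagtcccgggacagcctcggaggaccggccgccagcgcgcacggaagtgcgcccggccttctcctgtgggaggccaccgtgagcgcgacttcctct
Axl: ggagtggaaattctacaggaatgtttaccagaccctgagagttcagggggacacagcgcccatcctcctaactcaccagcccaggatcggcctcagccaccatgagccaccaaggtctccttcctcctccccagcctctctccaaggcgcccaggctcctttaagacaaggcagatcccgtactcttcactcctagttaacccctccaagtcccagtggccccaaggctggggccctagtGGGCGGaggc
Pros1: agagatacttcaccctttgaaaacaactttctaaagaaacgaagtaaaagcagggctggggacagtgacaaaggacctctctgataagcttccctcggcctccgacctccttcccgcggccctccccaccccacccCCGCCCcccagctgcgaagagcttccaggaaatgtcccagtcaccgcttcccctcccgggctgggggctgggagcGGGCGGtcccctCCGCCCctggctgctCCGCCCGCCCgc

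The GC box was found 3 times in the Mertk window, once in the Axl window and 5 times in the Pros1 window, where 2 matches overlap, and it was not in the Itgav window. It was in a window of 8 of the 9 members and in 32.7% of the 32851 promoter windows of the same length. The E-box CACGTG, the TAATCC site and the TGANTCA site were searched on both strands and were in a window of 0 of 9 members, against 6.02%, 6.25% and 6.75% of all windows. The GC box was thus found among members that were higher and members that were lower in KO.

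The deposited counts sum to 9828293 to 12363580 per WT library and to 14116835 to 32384166 per library of the other groups. Expression is given as CPM (counts scaled to a library of 1000000 reads with the TMM factors of the set). Clic4, the targeted gene, was 240.0 to 248 CPM in WT and 17.9 to 32.6 CPM in the KO libraries of that set, 59.4 to 69.1 in Ctrl and 9.39 to 32.6 in KO, and 86.4 to 108 in CreCtrl and 13.2 to 30.4 in KO. Its log2 differences were -3.32, -1.61 and -2.16. By edgeR's test it was called against WT and CreCtrl (adjusted p = 3.33e-05 and 0.0132) but not against Ctrl (0.333). The RPE markers Ttr and Rlbp1 were abundant in every library, whereas Best1 was 1.14 to 6.41 CPM throughout. Best1 was 3.52 to 6.41 CPM in WT and 1.20 to 1.54 in KO (log2 difference -1.82), and 2.61 to 3.26 in CreCtrl and 1.32 to 1.39 in KO (-1.11). Its libraries overlapped in the Ctrl set (0.08), and it was not called in any of the 3 sets. The summed CPM of 10 RPE markers was 18113 to 26567 in WT and 75517 to 82736 in KO, 47710 to 48361 in Ctrl and 73058 to 74972 in KO, and 52985 to 60244 in CreCtrl and 72942 to 82193 in KO. The summed CPM of 10 fibroblast markers was 8632 to 8929 in WT and 278 to 778 in KO, 1187 to 2334 in Ctrl and 120.3 to 317 in KO, and 1400 to 2820 in CreCtrl and 267 to 348 in KO. For 10 myeloid markers it was 1888 to 3135 in WT and 806 to 975 in KO, and 922 to 1260 in CreCtrl and 743 to 776 in KO. Csf1r made up most of the KO sums (739.7 to 808 and 709 to 715 CPM) with a log2 difference above 0 (0.52, called, and 0.28, not called). The other 9 myeloid markers were all called lower in KO vs. WT and 8 of them in KO vs. CreCtrl, and the medians over the 10 were -3.69 and -2.79 (log2). In the Ctrl set the myeloid sums overlapped, with 883 and 1420 in Ctrl and 840.0 and 2483 in KO. By these sums, KO libraries thus carried more RPE and fewer fibroblast transcripts than their controls in every set.

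Other transcripts moved with KO as well. The summed CPM of 8 immediate-early genes, which respond to stimulation and to tissue handling, was 11520 to 13711 in WT and 748 to 1692 in KO, 5340 to 7628 in Ctrl and 355 to 1457 in KO, and 3847 to 4237 in CreCtrl and 253 to 558 in KO. All 8 were called lower in KO vs. WT and in KO vs. CreCtrl and 0 in KO vs. Ctrl, with log2 medians of -3.59, -3.29 and -2.88. Sums of 10 endothelial and of 7 pericyte and smooth muscle markers were also lower in KO in each set without overlap, with medians of -2.45, -2.15 and -2.54 and of -1.05, -0.98 and -1.42 for the WT, Ctrl and CreCtrl sets. Of the 7 pericyte and smooth muscle markers, 5, 5 and 4 were below 0 in these sets, and 3, 0 and 3 were called lower. Acta2 (0.64) and Cspg4 (0.13) were above 0 in KO vs. WT, and Rgs5 made up most of the WT sum (1687 to 1980 CPM). Sums of 6 Schwann cell and melanocyte markers were higher in KO in the WT and CreCtrl sets and overlapped in the Ctrl set. Sox10 made up most of these sums, and 4 of the 5 markers tested were below 0 in each set. The part of these transcripts in the results for the members was not tested. In bulk RNA, fewer cells of a type and less RNA per cell cannot be told apart.

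In KO vs. WT, 6 of the 9 members changed (edgeR's quasi-likelihood test, adjusted p under 0.05). The receptors Mertk and Itgav were higher, and Axl, Itgb5 and the ligands Pros1 and Mfge8 were lower. The test called 35.1% of all genes in this comparison, 16.1% higher and 19.0% lower (2490 and 2930 genes, against 1720 and 3938 with scaling by library size alone), so calls were common here. The median log2 fold change was -0.18 over the members and -0.08 over all genes tested. In KO vs. CreCtrl, 3 of 9 members changed, Itgav higher and Axl and Pros1 lower, where 15.8% of all genes were called (3.60% higher, 12.2% lower). These were 575 genes higher and 1954 lower, against 219 and 2753 with scaling by library size alone. The median was -0.15 over the members and -0.02 over all genes. In KO vs. Ctrl, edgeR called 0 of 9 members and 0% of all genes, with a median of 0.06 over the members and 0.01 over all genes. DESeq2 also called 0 members there. At an unadjusted p under 0.05, edgeR passed 1 member, Pros1, and 1846 of 15287 genes. DESeq2, which tested 17282 genes, called 1166 in KO vs. Ctrl. With at least 1 count as the only filter edgeR called 1658, and without Ctrl replicate 1 or Ctrl replicate 2 it called 512 and 26, so the 0 over all genes holds for the main settings and not for these.

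**Figure D1:**
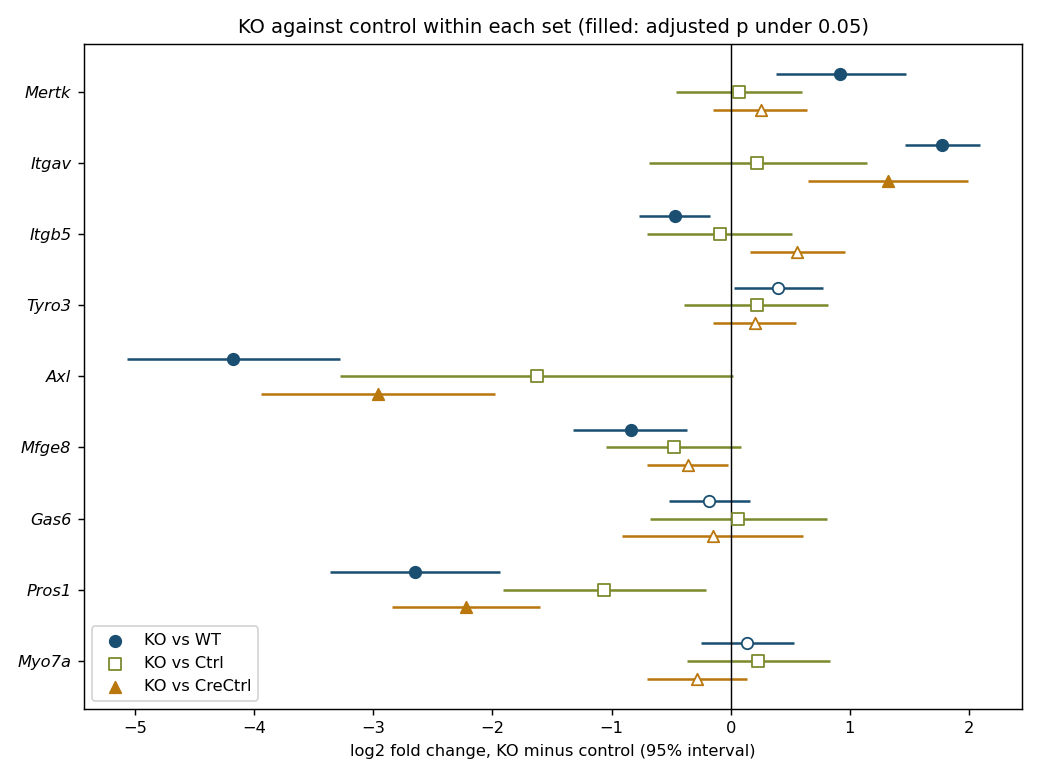
Log2 fold change of each member, KO minus control, on the horizontal axis, with circles for KO vs. WT, squares for KO vs. Ctrl and triangles for KO vs. CreCtrl. Lines are 95% intervals and filled symbols have an adjusted p under 0.05: Axl and Pros1 lie farthest below 0 in each comparison, at -4.18 and -2.65 in KO vs. WT.

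The sets were also fitted together, all 14 libraries with the set as a covariate. This tests the KO effect averaged over the sets, and not whether each set shows it. This fit called 6 of 9 members, where it called 36.2% of all genes (18.5% higher, 17.6% lower). These were 3276 and 3112 genes, against 1502 and 4767 with scaling by library size alone. Itgav, Mertk and Tyro3 were higher and Axl, Pros1 and Mfge8 lower in KO. These are the 6 members whose log2 fold change had the same sign in each of the 3 sets. Itgb5, Gas6 and Myo7a did not share a sign.

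**Figure D2:**
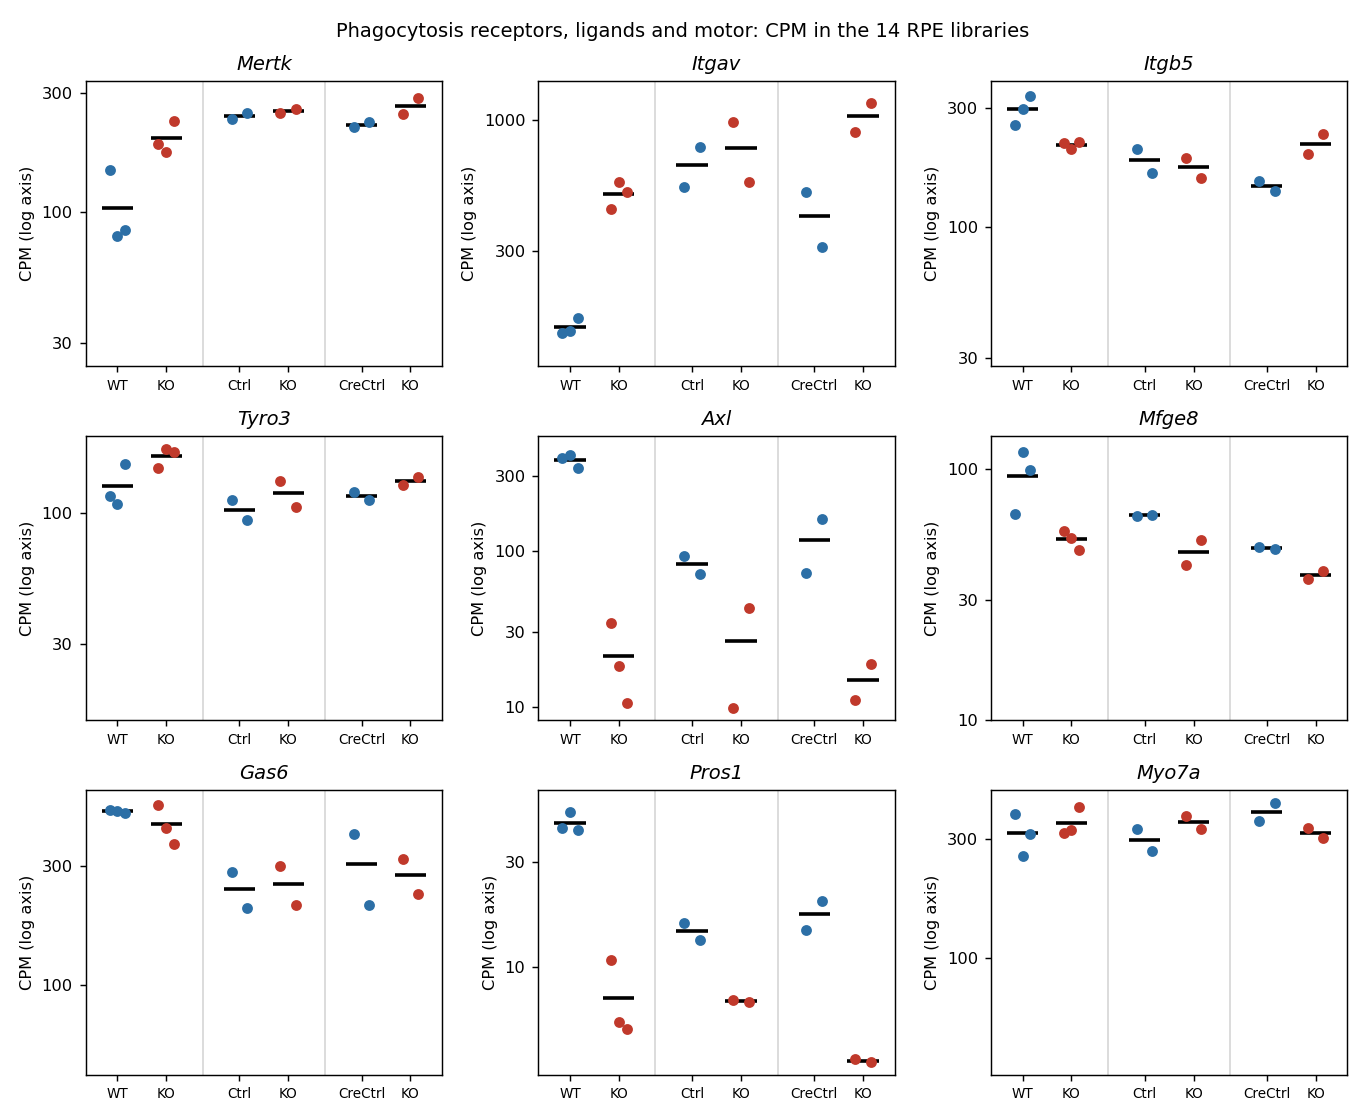
CPM of each member in the 14 libraries on a log axis, with 1 point per mouse, controls in blue, KO in red and a black line at the mean of each group. Grey lines separate the WT, Ctrl and CreCtrl sets, which were scaled separately. Axl and Pros1 of every KO library lie below the controls of the same set, and Gas6 overlaps in all 3 sets.

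Mertk (ENSMUSG00000014361, chromosome 2 of GRCm38, 128698956 to 128802894, plus strand) had 147, 80.2 and 85.1 CPM in the WT libraries and 187, 174 and 231 CPM in the KO libraries of that set. The KO libraries were all higher than the WT libraries, although WT replicate 1 was close to them. This was 1.89-fold more, which is 0.92 ± 0.24 on the log2 scale (SE, 95% interval 0.38 to 1.47, adjusted p = 0.0168 from edgeR's test). The call was lost without WT replicate 2 (adjusted p = 0.0610) or WT replicate 3 (adjusted p = 0.0641) and with scaling by library size alone (adjusted p = 0.0589).

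In the other sets Mertk was already near the KO level in the controls. It was 236 and 248 CPM in Ctrl and 249 and 259 CPM in KO, a log2 difference of 0.07 (interval -0.46 to 0.60, adjusted p = 0.966). It was 218 and 229.7 CPM in CreCtrl and 246 and 285 CPM in KO, a log2 difference of 0.25 (interval -0.15 to 0.64, adjusted p = 0.314). The KO libraries were the higher ones in each set, but neither of these differences passed edgeR's test. With the sets fitted together the log2 fold change of Mertk was 0.55 ± 0.18 (SE, adjusted p = 0.0263), and this call was lost without WT replicate 2 (adjusted p = 0.0568), WT replicate 3 (0.0615) or KO replicate 3 from the same set (0.0529). It was also lost with scaling by library size alone, where the log2 difference was 0.28 (adjusted p = 0.188). RPE markers moved with Mertk in the WT set, with 9 of 10 called higher and a median of 1.63 (log2), and their part in the Mertk result was not tested.

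Itgav, the alpha subunit of the binding integrin (ENSMUSG00000027087, chromosome 2, 83724397 to 83806916, plus strand), showed the largest increase among the members in KO vs. WT. It had 141, 143 and 162 CPM in the WT libraries and 442, 567 and 517 CPM in KO. The KO libraries were far above the WT libraries, which lay close together. This was 3.42-fold more, which is 1.77 ± 0.14 on the log2 scale (SE, interval 1.46 to 2.09, adjusted p = 5.68e-05 from edgeR's test). Leaving out any 1 library gave 1.74 to 1.92. RPE markers moved with Itgav too, with 9 of 10 called higher and the same median of 1.63, while Best1 was below 0 (-1.82, not called). Their part in the Itgav result was not tested.

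In the CreCtrl set Itgav rose from 516 and 312 CPM to 896 and 1171 CPM in KO, 2.49-fold (log2 fold change 1.32 ± 0.28 SE, adjusted p = 0.0276), with no overlap. This call was lost without KO replicate 2, the library with the most Itgav (adjusted p = 0.0894). There 2 of the 10 RPE markers were called higher, with a median of 0.50 (log2). In the Ctrl set the libraries overlapped, with 539.6 and 782 CPM in Ctrl and 978 and 567 CPM in KO (log2 difference 0.22, interval -0.69 to 1.14, adjusted p = 0.925). Exons of Itgav overlap 634 bases of the noncoding transcript Gm13684 on the other strand, and whether the counting used the strand is not given in the sources used here.

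Itgb5, the beta subunit of that integrin (ENSMUSG00000022817, chromosome 16, 33829665 to 33949338, plus strand), lay below the controls in KO vs. WT and above them in KO vs. CreCtrl. It had 257, 296 and 334 CPM in the WT libraries and 217, 205 and 219 CPM in KO. All KO libraries were lower than all WT libraries, by 1.38-fold (log2 fold change -0.47 ± 0.13 SE, adjusted p = 0.0233 from edgeR's test). The call was lost when any library but WT replicate 1 was left out, with adjusted p from 0.0565 to 0.131.

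In the CreCtrl set Itgb5 was 153 and 139 CPM in CreCtrl and 196 and 236 CPM in KO, where both KO libraries were the higher ones. The log2 difference of 0.56 (standard error 0.17, interval 0.16 to 0.96) had an adjusted p of 0.0619 from edgeR's test and of 0.00911 from DESeq2. In the Ctrl set it was 206 and 164 CPM in Ctrl and 189.7 and 157 CPM in KO, which overlapped (log2 difference -0.09, interval -0.70 to 0.51). With the sets fitted together the log2 difference of Itgb5 was 0.00 (interval -0.30 to 0.30).

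Tyro3, the TAM receptor best known from neurons (ENSMUSG00000027298, chromosome 2, 119797733 to 119818104, plus strand), had 117, 108 and 157 CPM in the WT libraries and 151, 179 and 175 CPM in KO. WT replicate 3 overlapped the KO libraries, and the log2 difference of 0.40 (standard error 0.16, interval 0.03 to 0.77) had an adjusted p of 0.0880 from edgeR's test. It averaged 103 ± 13.0 CPM in Ctrl and 119 ± 20.4 CPM in KO (SD, n = 2), which overlapped, and 116 ± 6.84 CPM in CreCtrl (SD, n = 2) against 129 and 139 CPM in KO, which did not. The log2 differences were 0.22 (interval -0.39 to 0.82) and 0.20 (interval -0.15 to 0.55), and neither passed. Only the fit of the 3 sets together called Tyro3 by the main settings (log2 fold change 0.36 ± 0.11 SE, adjusted p = 0.0186). That call was lost with scaling by library size alone, where the log2 difference was 0.09.

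Axl, the TAM receptor of fibroblasts, endothelium and many myeloid cells (ENSMUSG00000002602, chromosome 7, 25757273 to 25788705, minus strand), had the largest change of the 9 members in each set. It had 391, 412 and 339 CPM in the WT libraries and 34.2, 18.3 and 10.6 CPM in KO. This was an 18.1-fold decrease, which is -4.18 ± 0.39 on the log2 scale (SE, interval -5.07 to -3.28, adjusted p = 1.11e-04 from edgeR's test). The KO libraries were all well below the WT libraries, and leaving out any 1 library gave -4.66 to -3.76.

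In the CreCtrl set Axl was 72.1 and 159.9 CPM in CreCtrl and 11.0 and 18.7 CPM in KO. This was a 7.78-fold decrease (log2 fold change -2.96 ± 0.42 SE, adjusted p = 0.00808), with no overlap, and -2.31 without CreCtrl replicate 2. In the Ctrl set it was 92.8 and 70.6 CPM in Ctrl and 9.83 and 42.8 CPM in KO, which did not overlap either, but the KO libraries lay far apart (log2 difference -1.63 ± 0.66 SE, adjusted p = 0.423). Without KO replicate 2 of that set, which also had the most myeloid transcripts of the set, the log2 difference was -3.05, and without KO replicate 1 it was -0.94. Fibroblast markers moved with Axl, with log2 medians over the 10 of -4.32 for the WT set (10 of 10 called lower), -2.94 for the Ctrl set (0 called) and -3.37 for the CreCtrl set (9 called lower). Fbln1 was above 0 in the CreCtrl set (0.38). The summed CPM of 10 endothelial markers was lower in KO as well, with 369 to 856 in WT and 81.4 to 156 in KO, and so were 9 of 10 myeloid markers in KO vs. WT. The part of these cell types in the Axl result was not tested.

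**Figure D3:**
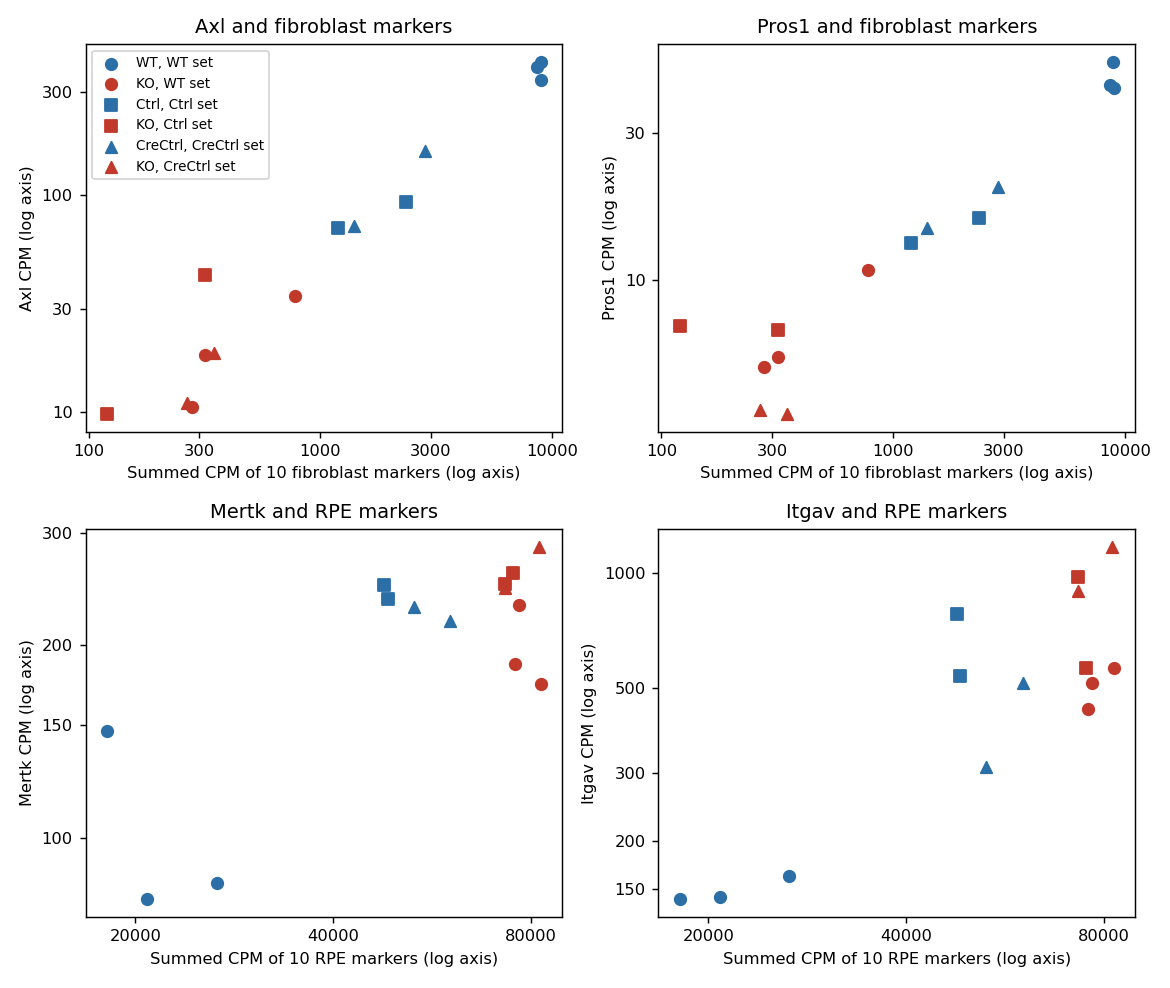
CPM of Axl and Pros1 (upper panels) against the summed CPM of 10 fibroblast markers, and of Mertk and Itgav (lower panels) against that of 10 RPE markers, on log axes. Each point is 1 of the 14 libraries, with controls in blue, KO in red and a symbol for each set, and CPM were scaled within sets. The 3 WT libraries stand apart, with 8632 to 8929 CPM of fibroblast markers and the most Axl and Pros1, and with the fewest RPE transcripts.

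Among the ligands, Pros1 (protein S, ENSMUSG00000022912, chromosome 16, 62854307 to 62929346, plus strand) had the largest change. It had 42.9, 51.1 and 42.0 CPM in the WT libraries and 10.8, 5.61 and 5.21 CPM in KO. This was a 6.29-fold decrease, which is -2.65 ± 0.31 on the log2 scale (SE, interval -3.36 to -1.94, adjusted p = 3.28e-04 from edgeR's test). The groups were far apart, and leaving out any 1 library gave -3.01 to -2.37.

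Pros1 was 14.7 and 20.0 CPM in CreCtrl and 3.78 and 3.67 CPM in KO, a 4.66-fold decrease (log2 fold change -2.22 ± 0.26 SE, adjusted p = 0.00555). It was 15.9 and 13.2 CPM in Ctrl and 7.07 and 6.89 CPM in KO, again without overlap (log2 difference -1.06 ± 0.34 SE, adjusted p = 0.275). Pros1 was the member with the fewest transcripts per length in each of the 6 groups. The same fibroblast markers moved with Pros1 as with Axl, and their part was not tested.

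Mfge8 (ENSMUSG00000030605, chromosome 7, 79133768 to 79149060, minus strand), the integrin ligand, fell less. It had 66.0, 117 and 99.6 CPM in the WT libraries and 56.7, 53.2 and 47.6 CPM in KO, with WT replicate 1 close to KO replicate 1. This was a 1.80-fold decrease, which is -0.84 ± 0.21 on the log2 scale (SE, adjusted p = 0.0128 from edgeR's test), and the call was lost without KO replicate 2 (adjusted p = 0.0526) or KO replicate 3 (adjusted p = 0.0626) of that set.

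Mfge8 was 65.2 and 65.7 CPM in Ctrl and 41.4 and 52.3 CPM in KO, and 48.9 and 48.0 CPM in CreCtrl and 36.3 and 39.2 CPM in KO. The KO libraries were lower in both sets without overlap, with log2 differences of -0.48 (interval -1.05 to 0.09, adjusted p = 0.528) and -0.36 (interval -0.70 to -0.02, adjusted p = 0.111). With the sets fitted together, the log2 fold change of Mfge8 was -0.53 ± 0.12 (SE, adjusted p = 0.00480), a call kept under each alternative run.

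Gas6, the ligand of all TAM receptors (ENSMUSG00000031451, chromosome 8, 13465374 to 13494490, minus strand), was not called in any comparison. It had 501, 498 and 489 CPM in the WT libraries and 522, 426 and 367 CPM in KO. The log2 difference was -0.18 (interval -0.52 to 0.16). It was 283 and 203 CPM in Ctrl and 299 and 208 CPM in KO, and 403 and 208 CPM in CreCtrl and 320.2 and 230.4 CPM in KO. These groups overlapped, with log2 differences of 0.06 (interval -0.68 to 0.81) and -0.15 (interval -0.91 to 0.61), which leaves room for changes up to these bounds. Its exons overlap 34 bases of Tmem255b on the other strand.

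The motor Myo7a (ENSMUSG00000030761, chromosome 7, 98051060 to 98119524, minus strand) was not called either. It had 378, 256 and 314 CPM in the WT libraries and 316, 326 and 402 CPM in KO, a log2 difference of 0.14 (interval -0.25 to 0.53). It was 328 and 267 CPM in Ctrl and 371 and 327 CPM in KO, and 353 and 417 CPM in CreCtrl and 332 and 302 CPM in KO. The KO libraries were below their controls only in the CreCtrl set, where the log2 difference was -0.28 (interval -0.70 to 0.14).

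Counted by overlap alone, every KO library lay above every control for 2 members and below for 4 in the WT set, where this held for 23.7% and 28.4% of all genes. In the Ctrl set it held for 1 member above (18.2% of all genes) and 3 below (22.8%). In the CreCtrl set it held for 4 members above (34.8%) and 4 below (36.9%).

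To ask which TAM receptor the libraries held, the share of Mertk in the summed counts per kb of exon of Mertk, Tyro3 and Axl was computed in each library, a measure that does not depend on the scaling between libraries. Mertk was 26.0%, 15.7% and 17.5% of TAM transcripts in WT and 58.1%, 55.3% and 63.7% in KO. It was 59.8% and 66.3% in Ctrl and 71.0% and 70.2% in KO. It was 59.8% and 51.6% in CreCtrl and 71.2% and 71.6% in KO. Every KO library had a larger Mertk share than the controls of its set. KO and control means differed by 39.3 percentage points for WT, 7.51 for Ctrl and 15.8 for CreCtrl. The mean of the within-set differences was 20.9 percentage points (two-sided exact permutation test within sets, p = 0.00278, the smallest that the 720 arrangements allow), and leaving out any 1 library gave 19.5 to 22.2.

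Axl took the largest share in WT (59.5%, 69.5% and 60.0%) and the smallest in each KO library (2.41% to 10%). In Ctrl and CreCtrl it was 16.3% to 30.9%. Tyro3 was 14.4% to 22.5% of TAM transcripts in WT and 32.8% to 39.7% in the KO libraries of that set. The KO libraries of all 3 sets thus held mostly Mertk, and only the WT libraries held mostly Axl. Ctrl and CreCtrl libraries also held mostly Mertk (51.6% to 66.3%). Less Axl raises the Mertk share even where Mertk is unchanged. Among the comparisons within sets, Mertk was called only against WT (log2 0.92, with 0.07 against Ctrl and 0.25 against CreCtrl). Fibroblast and endothelial markers were lower in KO too, and their part in these shares was not tested.

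The same was done for Itgb5 among the beta subunits that pair with Itgav (Itgb1, Itgb3, Itgb5, Itgb6 and Itgb8). Itgb5 was 44.5%, 45.9% and 51.2% of them in WT and 29.5%, 28.5% and 26.9% in KO. It was 20.4% and 12.3% in Ctrl and 12.0% and 13.3% in KO, which overlapped, and 17.6% and 21.6% in CreCtrl and 14.6% in each KO library. The mean difference was -9.22 percentage points (two-sided exact permutation test within sets, p = 0.00556), so the Itgb5 share was on average lower in KO. It was -18.9 points for the WT set, -3.73 for Ctrl and -5.04 for CreCtrl. In the CreCtrl set the log2 difference of Itgb5 itself was above 0, and that of Itgb8 was 1.28. More Itgb8 lowers the Itgb5 share even where Itgb5 is unchanged or higher. The part of RPE and fibroblast markers in these shares was not tested.

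Itgb8, a subunit best known for activating TGF-beta, made up much of the difference. It was 8.66% to 10.4% of the beta transcripts in WT and 53.3% to 59.2% in the KO libraries of that set, and 54.1% to 79.3% in all libraries of the other sets. Itgb1, the common subunit of matrix receptors, was 36.9% to 44.9% in WT and 11.4% to 15.7% in KO.

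**Figure D4:**
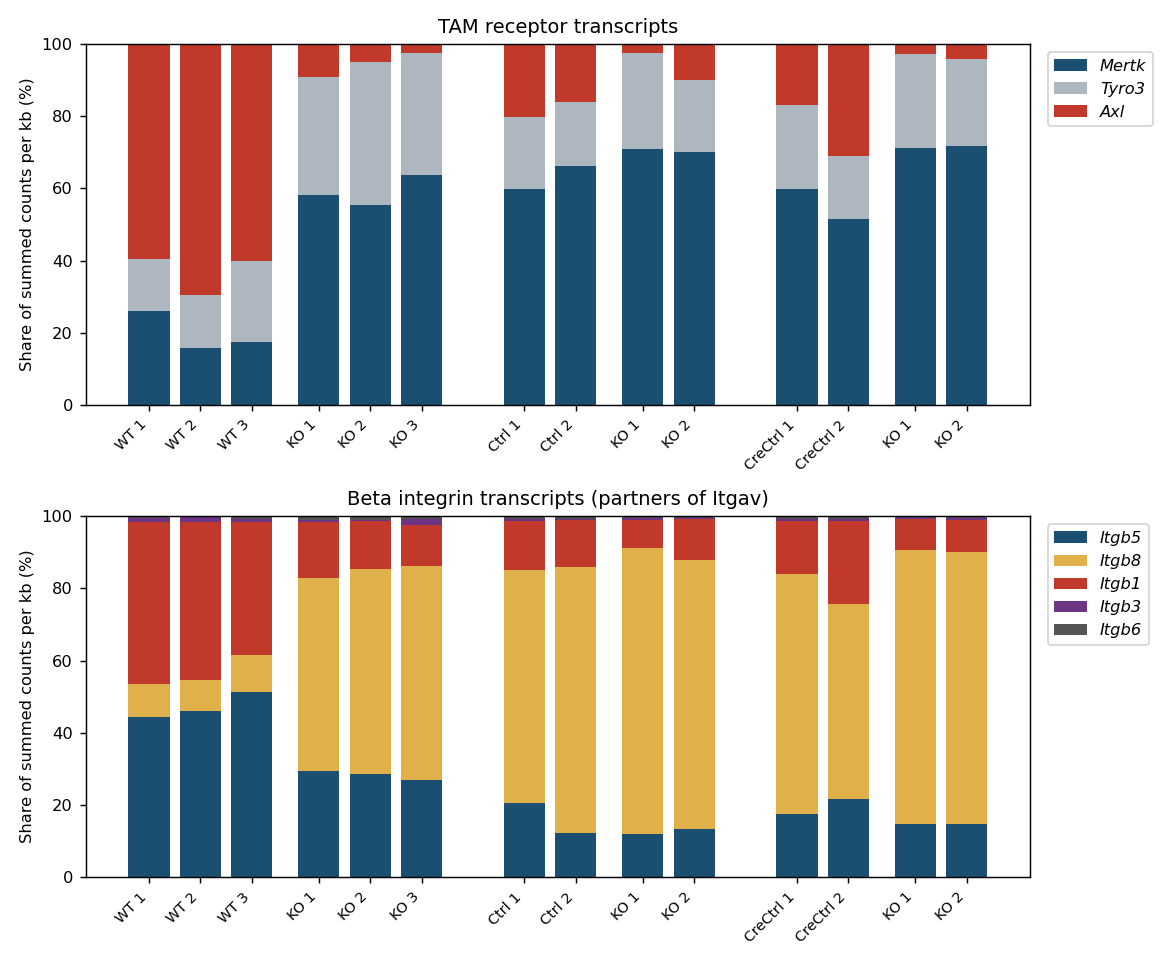
Share of each TAM receptor (upper panel) and of each beta integrin subunit that pairs with Itgav (lower panel) in their summed counts per kb of exon, in percent, with 1 bar per library. The WT bars are mostly Axl (59.5% to 69.5%) and Itgb5 with Itgb1, and all KO bars are mostly Mertk (55.3% to 71.6%) and Itgb8.

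The order of the members by CPM per kb of exon was compared within each group. Gas6 was the most abundant in all 6 groups, with 195 CPM per kb in WT and 172 in the KO libraries of that set, 95.2 in Ctrl and 99.4 in KO, and 119.9 in CreCtrl and 108 in KO. In the KO libraries of the Ctrl and CreCtrl sets its range overlapped that of Itgav, the next member. In WT, Itgb5 (83.2) and Axl (75.6) followed and overlapped, then Myo7a (36.9), Mertk (24.0), Tyro3 (20.5) and Mfge8 (20.1), each overlapping the next.

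Itgav was at rank 8 of 9 in WT, with 13.8 CPM per kb, and at rank 3 in the KO libraries of that set, with 47.3, where it overlapped Mertk (45.5). Axl was at rank 3 in WT and rank 8 in KO in the WT set (4.18 CPM per kb), at rank 6 or 7 in the other controls and at rank 8 in their KO libraries. Pros1 was last in each group, from 11.1 CPM per kb in WT to 0.911 in the KO libraries of the CreCtrl set.

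Whether the KO effect differed between sets was tested by the contrasts of the 3 effects in 1 fit of the 14 libraries. Of the 9 members, 1 was called in the contrast of the WT and Ctrl sets, where 5.15% of all genes were called (4.34% with a more positive KO minus control value in the WT set). This was Itgav, whose increase was larger in the WT set by 1.69 on the log2 scale (standard error 0.38, adjusted p = 0.0267). For Axl the difference was -2.40 (adjusted p = 0.0917), for Pros1 -1.46 (adjusted p = 0.0693) and for Mertk 0.99 (adjusted p = 0.0941), none of which passed. In the contrast of the WT and CreCtrl sets 0 of 9 were called (1.49% of all genes, 1.12% with a more positive value in the WT set), with 2 members at an unadjusted p under 0.05, Mertk and Itgb5. For Itgb5 this difference was -0.92 (adjusted p = 0.0598 from edgeR's test), and DESeq2 called it. The contrast of the Ctrl and CreCtrl sets called 0 of 9 members and 0% of all genes, with Itgav, Itgb5 and Pros1 at an unadjusted p under 0.05.

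The other genes of the pathway were taken from 3 lists with 67 genes. In KO vs. WT, 33 of the 63 tested were called, 15 higher and 18 lower, where 35.1% of all genes were called. In KO vs. CreCtrl 15 of 64 were called, 6 higher and 9 lower, where 15.8% of all genes were called, and in KO vs. Ctrl 0 of 64, where 0% were called. These genes were thus called in both directions, as the members were.

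Of the other receptors and ligands, 5 were higher and 9 lower in KO vs. WT of 22 tested, where 16.1% of all genes were higher and 19.0% lower. Itgb8 rose from 182 ± 27.1 to 1332 ± 147 CPM (SD, n = 3; log2 fold change 2.87) and Vtn, vitronectin, a ligand of alphavbeta5, from 22.8 ± 21.2 to 77.4 ± 4.28 CPM (1.75). The call of Vtn was lost when any library but WT replicate 3 was left out (adjusted p from 0.0535 to 0.107) and with scaling by library size alone (0.0549), and without WT replicate 3 its log2 fold change was 2.87. Scarb1, a lipoprotein and phosphatidylserine receptor, rose by a log2 fold change of 0.74 and Cd81, a tetraspanin, by 0.68. Itgb8 was also called in KO vs. CreCtrl (1.28), but not without KO replicate 2 (adjusted p = 0.158), and Vtn was not (-0.05).

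On the lower side, Cd36, a scavenger receptor that takes part in outer segment uptake, fell from 59.3 ± 9.88 to 3.55 ± 0.745 CPM (SD, n = 3; log2 fold change -4.06). Stab1, a scavenger receptor of macrophages and endothelium, changed by -3.81 and Lgals3, galectin-3, by -2.13. Without KO replicate 3 the value of Stab1 was -3.19. Adgrb1, an engulfment receptor that binds phosphatidylserine, went from 18.7 ± 6.87 to 1.25 ± 1.30 CPM (SD, n = 3; log2 fold change -3.89), a value that was -5.13 without KO replicate 1. Cd36, Stab1 and Lgals3 were also called in KO vs. CreCtrl (-3.18, -2.33 and -1.59), where leaving out 1 library moved the value of Cd36 from -2.44 (without CreCtrl replicate 2) and -2.56 (without KO replicate 1) to -4.24 (without KO replicate 2). The calls of Cd36, Stab1 and Lgals3 in KO vs. CreCtrl were lost in a fit of all 14 libraries as 6 groups. Cd36 in the Ctrl set was 77.9 and 24.5 CPM in Ctrl and 4.63 and 70.7 CPM in KO, so its libraries overlapped. The high KO library is KO replicate 2, and the part of myeloid transcripts in it was not tested.

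Of 20 genes of engulfment signalling and the cytoskeleton, 5 were higher and 6 lower in KO vs. WT (35.1% of all genes called, 16.1% higher and 19.0% lower). The higher ones included Ezr, ezrin, which links microvilli to actin (log2 fold change 2.06, from 414 ± 83.2 to 1722 ± 88.8 CPM, SD, n = 3), the engulfment adaptor Gulp1 (1.89), the adaptor Bcar1 (1.13) and the kinase Src (1.02). The lower ones included Vav3, an exchange factor (-4.55), at 5.98 ± 3.77 CPM in WT and 0.245 ± 0.204 CPM in KO (SD, n = 3), Elmo1, which activates Rac with Dock1 (-3.00), Anxa2, a membrane-actin linker (-1.72), and Myh9, a nonmuscle myosin (-1.51). The KO level of Vav3 is near that of 3 counts per library (0.200 to 0.203 CPM), and its value was -5.27 without KO replicate 3. A fit of all 14 libraries as 6 groups did not call Gulp1, Elmo1 and Anxa2 in KO vs. CreCtrl. By the main settings these and Myh9 were called in KO vs. CreCtrl as well, with the same direction. There the calls of Gulp1 (adjusted p = 0.0738) and Anxa2 (0.0846) were lost without KO replicate 2, and that of Myh9 without CreCtrl replicate 2 (0.0679), KO replicate 1 (0.142) or KO replicate 2 (0.0897), and without CreCtrl replicate 1 the value of Gulp1 was 1.79 in place of 1.17.

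Of 21 genes of phagosome transport and maturation, 5 were higher and 3 lower in KO vs. WT, a share close to the 35.1% of all genes called. Rab27a (1.58) and Myrip (1.56), which tether melanosomes and join Myo7a to them, were higher, with Myrip at 174 ± 14.7 CPM in WT and 512 ± 94.1 CPM in KO (SD, n = 3). Rab5a, a GTPase of early endosomes (1.26), and Atp6v0a1, a subunit of the proton pump (0.86), were higher too. Lamp1, a lysosomal membrane protein (-0.91), Klc1, a kinesin light chain (-0.49), and Map1lc3b, the LC3 protein (-0.41), were lower. The call of Klc1 was lost without KO replicate 1 (adjusted p = 0.0722) or KO replicate 3 (0.0921). That of Map1lc3b was lost without WT replicate 2 (0.0792) or any 1 KO library (0.0883, 0.146 and 0.167) and with at least 1 count as the filter (0.103). In KO vs. CreCtrl 3 of these 21 genes were called, all higher, where 15.8% of all genes were called and 3.60% higher. Rab27a was among them (0.78), a call lost without CreCtrl replicate 2 (0.0836), KO replicate 1 (0.0843) or KO replicate 2 (0.234). The adapters of Myo7a thus had more transcripts in KO than in WT, while the log2 difference of Myo7a was 0.14. Myrip was not called in KO vs. CreCtrl (0.69, adjusted p = 0.0522 from edgeR's test). Neither adapter was called in KO vs. Ctrl, with 0.22 for Rab27a and 0.35 for Myrip. The RPE markers had a median of 1.63 in KO vs. WT, and their part in the values of Rab27a and Myrip was not tested.

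**Figure D5:**
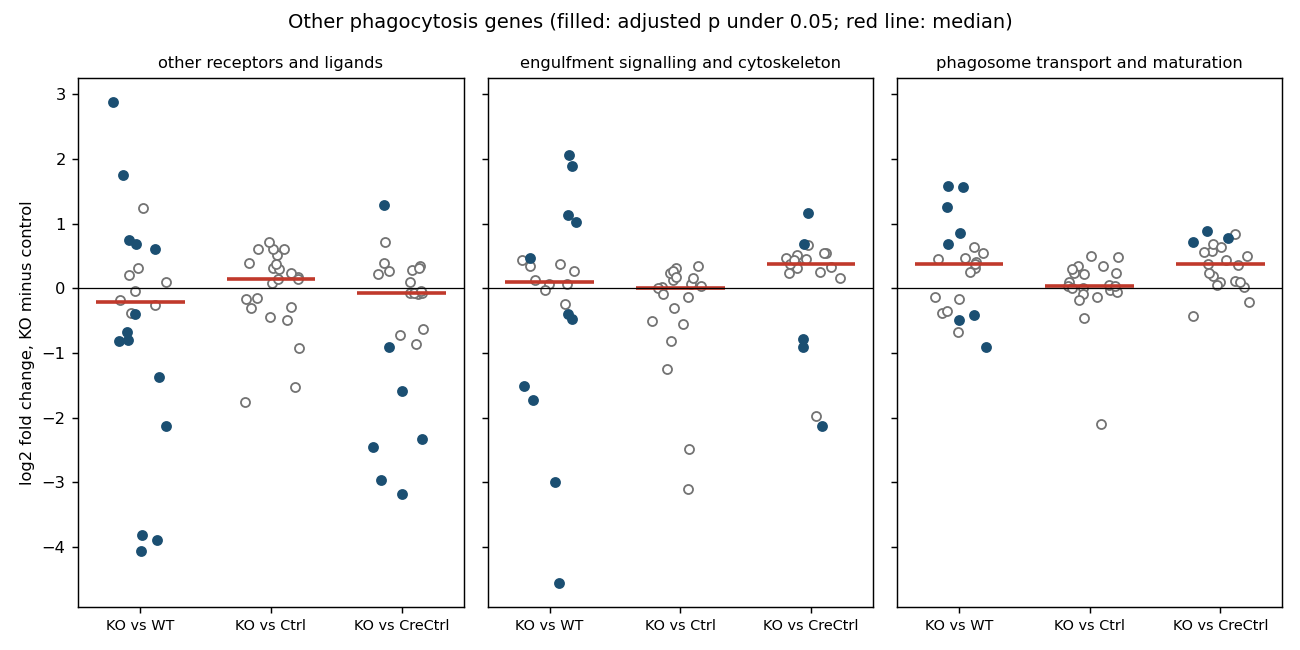
Log2 fold changes, KO minus control, of the other phagocytosis genes in the 3 lists (panels) and 3 comparisons. Each point is 1 gene, filled where the adjusted p was under 0.05, and red lines are medians. In KO vs. WT the medians lie between -0.22 and 0.37, with genes far from 0 on both sides.

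The genes most like each member across the 14 libraries were found as those with the smallest root mean square difference of log2 CPM, centred within sets, among 9738 genes with a mean of at least 10 CPM. For Mertk these were Dab1 (0.121) and Cbr4 (0.130), for Itgav Nipa1 (0.120) and Atrnl1 (0.131), and for Itgb5 Epn2 (0.134) and Tprgl (0.135). For Axl they were Colec12 (0.209) and Lsp1 (0.222), and for Pros1 Carhsp1 (0.226) and C1ra (0.241). For Mfge8 they were Slc31a2 (0.142) and Litaf (0.145), and for Gas6 Phlda3 (0.171) and Ifi35 (0.197). Tyro3 was nearest to Nfs1 (0.0585) and Ufd1 (0.0700), and Myo7a to Zbtb43 (0.0800) and Otud5 (0.0912). Members that vary little have small distances to many genes, and Tyro3 (0.215) and Myo7a (0.188) had the smallest spread about their set means, against 1.78 for Axl and 1.09 for Pros1.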

How the data were processed

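The authors aligned paired-end reads of stranded poly(A) libraries to GRCm38 and deposited counts of reads per Ensembl gene, without normalization. The submitters' processing notes name STAR 2.5.2, HTSeq 0.11.2, Cufflinks 2.1.1 and bcl2fastq 2.19. The strand setting and annotation release of the counting are not given in the sources used here. Names, positions and exon lengths come from GENCODE M21, where 42329 of 42687 gene identifiers were found.

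KO was tested against the controls of its set on the raw counts by edgeR 4.0.16 (quasi-likelihood test, TMM, filterByExpr, Benjamini-Hochberg adjustment over all genes tested, called under 0.05). Standard errors were derived from the F statistic, with 95% intervals. DESeq2 1.42.0 and other scalings, filters and left-out libraries were alternatives. Exact tests permuted labels within sets. Log2 CPM for the nearest genes used a pseudocount of 0.5. The members and lists were chosen with earlier results of these data known. Named beside the members are up to 4 genes per list and direction with the largest change in KO vs. WT, the 2 nearest genes of each member, Clic4 and markers. The rod photoreceptor markers are not reported here. Replicates are separate mice, and none agreed within sampling noise. Intervals cover the spread between these mice only.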

Additional observations from a re-analysis of the deposited data

Results flagged for a closer look

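The KO effect on Itgav differed between the WT and Ctrl sets by 1.69 (log2; adjusted p = 0.0267 in edgeR, tested as the difference itself). This call was lost without WT replicate 1, KO replicate 2 of the WT set, Ctrl replicate 2 or KO replicate 2 of the Ctrl set, with values of 1.32 to 2.16 over the left-out libraries. The KO effect on Itgb5 differed between the WT and CreCtrl sets by -0.92 on the log2 scale, with every KO library below its controls in the WT set and above them in the CreCtrl set (adjusted p = 0.0598 from edgeR, 0.00217 from DESeq2). Control genotype and set cannot be told apart in either.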

How the results depend on the processing

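Axl and Pros1 were called lower in KO vs. WT and in KO vs. CreCtrl, and Itgav higher in KO vs. WT, under every alternative run. With at least 1 count as the only filter, KO vs. Ctrl called 1 member (Axl), 4 other phagocytosis genes and 1658 genes in all, and KO vs. CreCtrl called 26 and 4793. DESeq2 called 2 other phagocytosis genes and 1166 genes against Ctrl, and 24 and 3987 against CreCtrl. A fit of all 14 libraries as 6 groups called 2 and 648, and 3 and 704. The differences between sets called 2 members with RLE normalization, 3 with DESeq2, 5 with at least 1 count and 3 with at least 10 counts in every library. The cause of these changes was not tested.

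Leaving out 1 library gave 4 to 6 members against WT, 0 against Ctrl, 2 to 4 against CreCtrl, 5 to 6 in the fit of 3 sets and 0 to 2 in the differences (the last chosen after seeing the data). For the other phagocytosis genes it gave 27 to 34, 0 to 3 and 6 to 26, and for all genes 4490 to 4820, 0 to 512 and 1147 to 5157, in the order WT, Ctrl, CreCtrl. Without a library, log2 differences crossed 0 only for values that were not called, among the members Itgav (-0.23 to 0.57), Itgb5 (-0.25 to 0.09) and Gas6 (-0.23 to 0.33) in KO vs. Ctrl, Gas6 in KO vs. WT (-0.27 to 0.03) and KO vs. CreCtrl (-0.58 to 0.41), and Itgb5 (-0.08 to 0.06) and Gas6 (-0.10 to 0.10) in the fit of 3 sets. In KO vs. Ctrl they did so for Vtn (-0.09 to 0.66), Cd36 (-3.46 to 0.63), Stab1 (-2.74 to 0.43), Gulp1 (-0.06 to 0.38), Rab27a (-0.10 to 0.65), Rab5a (-0.23 to 0.53), Lamp1 (-0.23 to 0.15), Klc1 (-0.36 to 0.04) and Map1lc3b (-0.15 to 0.15), and in KO vs. CreCtrl for Vtn (-0.28 to 0.18).

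Scaling by library size alone moved the median of all genes to -0.32 (WT), -0.10 (Ctrl), -0.24 (CreCtrl) and -0.29 (3 sets), and the share of called genes that were higher from 45.9% to 30.4% in KO vs. WT, from 22.7% to 7.37% in KO vs. CreCtrl and from 51.3% to 24.0% in the fit of 3 sets. In KO vs. CreCtrl this share was 41.4% with DESeq2 (1652 higher and 2335 lower) and 4.07% to 46.2% without 1 library. In the differences it fell from 84.3% to 64.5% (WT and Ctrl sets) and from 75.0% to 54.5% (WT and CreCtrl sets), and to 73.7% and 64.2% with RLE. It turned the sign of Myo7a in KO vs. WT (-0.10) and in the fit of 3 sets (-0.16), of Mertk (-0.04), Gas6 (-0.07) and Map1lc3b (-0.11) in KO vs. Ctrl, and of Tyro3 (-0.02), Lamp1 (-0.03) and Map1lc3b (-0.12) in KO vs. CreCtrl. Map1lc3b in KO vs. Ctrl was also -0.00 with at least 1 count and -0.03 with at least 10. Itgb5 in the fit of 3 sets, at 0.00, became -0.07 with RLE and with DESeq2, -0.27 with library size and -0.11 with at least 10 counts. With at least 10 counts the fit of 3 sets no longer called Mertk or Tyro3.

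The replicate numbers are shared between KO and control libraries, which the main settings took as unpaired. Deviations of same-numbered libraries correlated at -0.01, 0.09 and 0.21 (WT set), -0.02 (Ctrl set) and 0.07 (CreCtrl set). Differently numbered libraries of the WT set correlated at -0.18 to 0.08. In the other sets, with 2 libraries per group, the differently numbered pairs only mirror these values. The correlations therefore cannot decide whether same-numbered samples share more than a number. With the replicate block, 113 genes were called against Ctrl and 3824 against CreCtrl, and the members called in the 3 comparisons were the same 6, 0 and 3. The block ended the calls of Map1lc3b in KO vs. WT (adjusted p = 0.0539), of Rab27a in KO vs. CreCtrl (0.0568) and of Mertk in the fit of 3 sets (0.0590). A fit of 14 libraries as 6 groups ended those of Itgb5 (0.0865), Klc1 (0.0523) and Map1lc3b (0.109) in KO vs. WT. In KO vs. CreCtrl the same fit ended those of Cd36 (0.0760), Stab1 (0.157), Lgals3 (0.197), Gulp1 (0.0616), Elmo1 (0.0714), Anxa2 (0.135) and Rab27a (0.0891). In all, 1233 of 1393 repeated values for single genes kept their sign and their side of the threshold.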
